A study of Homo sapiens with 12 samples.

Results

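The H3K9me1 regions that lie beside the centromeres of chromosomes 1, 2, 6, 7, 10, 12, 16 and 17 were described in HCT116 cells, an established human colorectal carcinoma line used at passage 19. A region was taken when its midpoint fell in 1 of 8 windows of the hg19 build: chr1:116000001-147000000, chr2:87000001-100000000, chr6:53000001-66000000, chr7:53000001-66000000, chr10:34000001-47000000, chr12:29000001-42000000, chr16:30000001-51000000 and chr17:17000001-30000000. The windows held 74772 of the 2264195 H3K9me1 regions in the 4 lists, and 1220815 regions lay elsewhere on the same 8 chromosomes. All 8 chromosomes held regions in each of the 4 lists. Of the 74772 window regions, control A gave 18177, control B 21616, restricted A 11708 and restricted B 23271. Control cells were taken at 0 hr from RPMI-1640 medium with fetal bovine serum. Restricted cells had been washed and kept for 24 hr in the same medium and serum without methionine, the precursor of the methyl donor S-adenosylmethionine. There were 2 libraries per condition, lettered A and B, and no control at 24 hr. Effects of restriction and of the longer culture thus cannot be told apart. The labels do not say whether the letters stand for separate cultures, so the spread between them may be technical.

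Centromeres are built on arrays of alpha satellite, which the hg19 assembly leaves as gaps, and the flanking pericentromere is rich in satellite repeats and segmental duplications and poor in genes. Lysine 9 of histone H3 can carry up to 3 methyl groups. The trimethylated form, written by SUV39H1 and SUV39H2 and bound by HP1 proteins, marks constitutive heterochromatin at pericentromeres. The monomethylated form, H3K9me1, is both a precursor of the higher forms and a product of their demethylation, and it is also known from the bodies and promoters of active genes. Methyltransferases use S-adenosylmethionine for each of these steps.

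Each centromere gap was read from the data as the longest stretch of a window with no region in any of the 4 lists. The gaps measured up to 3.22 Mb on chromosomes 2, 6, 7, 10, 12 and 17, 11.1 Mb on chromosome 16 and 21.1 Mb on chromosome 1. The last 2 gaps take in the long satellite blocks of 1q and 16q. Without the gaps the windows spanned 79.5 Mb, or 6.55% of the length of the 8 chromosomes, in 16 flanks (a short-arm or p side and a long-arm or q side per chromosome). Another 30 stretches of at least 50 kb held no region, 3.27 Mb in all, of which 15 lay in the window of chromosome 1.

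Each restricted H3K9me1 library was sequenced more deeply (39452512 reads for A, 35134998 for B) than either control (30952210 for A, 31683422 for B). Depth thus ran with condition, and its part in the differences between conditions was not tested. The amount called differed more than the depth. Of the 8 chromosomes, regions covered 12.9% and 15.8% in controls A and B against 5.95% and 15.4% in restricted A and B, so restricted A stood apart. Values are therefore given as relative density, the covered share of a stretch divided by the covered share of the 8 chromosomes in the same library, so that 1 is the average of those chromosomes. The caller's threshold was weak (p of 0.1), and 0.640% to 4.25% of regions outside the windows had a −log10 p of at least 2. With 2 libraries against 2, an exact two-sided permutation test over the 6 relabellings cannot give a p below 0.333. A statement that the conditions did not overlap means that both restricted libraries lay on one side of both controls.

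Over all called regions, H3K9me1 was thinner beside the centromeres than over the chromosomes as a whole, and the deficit was smaller in the restricted libraries. The relative density of the windows was 0.834 (A) and 0.860 (B) in the controls against 0.974 (A) and 0.892 (B) in the restricted libraries. All 4 values lay below 1, and both restricted values lay above both controls. The mean was 0.847 ± 0.0186 (SD, n = 2) in control and 0.933 ± 0.0576 (SD, n = 2) in restricted cells, a ratio of 1.10 (exact permutation test, two-sided, p = 0.333). The ratio was 1.17 within letter A and 1.04 within letter B, and without restricted A the log2 ratio was 0.08 in place of 0.14. In unscaled covered share the windows held 10.8%, 13.6%, 5.80% and 13.8% in the same order. The conditions overlapped on that scale and the log2 ratio turned to −0.32. Among regions with a −log10 p of at least 2 there was no deficit in 3 of the 4 libraries: the window densities were 0.976 and 1.14 in the controls and 1.63 and 1.55 after restriction (log2 ratio 0.58). With a −log10 p of at least 1.5 they were 0.875 and 0.898 against 1.36 and 0.975 (log2 ratio 0.40).

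The p sides carried more of the difference than the q sides. Summed over the 8 chromosomes, the p sides had densities of 0.772 and 0.818 in the controls against 0.987 and 0.872 in the restricted libraries. The q sides had 0.907 and 0.910 against 0.958 and 0.917. The q-side values of control B and restricted B thus differed by a ratio of 1.01, against 1.07 on the p sides. Whether the sides differ in their response was not tested.

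Density fell towards the gap in every library, most steeply in the controls. In the first Mb from the gap it was 0.523 and 0.532 in the controls and 0.831 and 0.665 in the restricted libraries, a log2 ratio of 0.50 (0.33 without restricted A). At 1 to 2 Mb it was 0.723 and 0.761 against 0.921 and 0.826, and at 2 to 3 Mb 0.889 and 0.908 against 1.03 and 0.926. These 3 steps were higher after restriction with no overlap, by amounts that shrank with distance. The step at 2 to 3 Mb overlapped without chromosome 6, 10 or 16, and with −log10 p of at least 2. Without restricted A its log2 ratio was 0.04 in place of 0.12. At 3 to 4 Mb the conditions overlapped, with values of 0.937 to 1.01. At 4 to 5 Mb the order was turned, with 1.09 and 1.08 in the controls and 1.04 and 1.03 in the restricted libraries, but without chromosome 17 this last step was higher after restriction (log2 ratio 0.05).

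The depth of the dip can be given as the density at 4 to 5 Mb over that in the first Mb. This ratio was 2.08 (A) and 2.03 (B) in the controls against 1.25 (A) and 1.55 (B) after restriction. Both restricted libraries had the shallower dip, with means of 2.06 ± 0.0295 against 1.40 ± 0.210 (SD, n = 2 each; exact permutation test, two-sided, p = 0.333). Removing the other region-free stretches from the lengths left ratios of 1.93 and 1.89 against 1.16 and 1.44. The windows end before 5 Mb on every q side, so the step at 4 to 5 Mb spans 12.3 Mb against 16 Mb in the first. Averaged over flanks, the density at 4 to 5 Mb was 1.01 and 0.993 in the controls and 0.963 and 0.979 in the restricted libraries. Leaving out each chromosome in turn gave log2 ratios of 0.39 to 0.63 for the first Mb. The lowest of these was without chromosome 7.

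**Figure D1:**
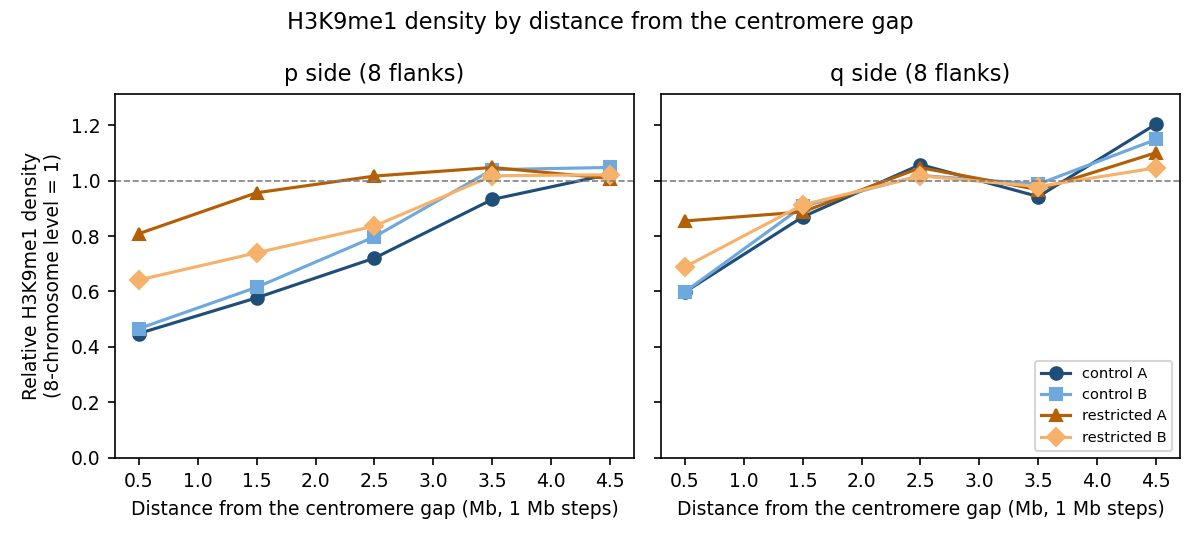
Relative H3K9me1 density (y axis, 1 = average of the 8 chromosomes) by distance from the centromere gap in 1 Mb steps (x axis), for the 8 p-side and the 8 q-side flanks, with 1 line per library. The first p-side step runs from 0.448 and 0.466 in the controls to 0.808 and 0.641 in the restricted libraries, while on the q side the conditions overlap from 1 to 4 Mb.

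On the p side the first Mb held 0.448 and 0.466 in the controls against 0.808 and 0.641 in the restricted libraries. The p-side difference was still present at 2 to 3 Mb, with 0.720 and 0.797 against 1.02 and 0.836. On the q side the first Mb held 0.598 and 0.599 against 0.854 and 0.688, and between 1 and 4 Mb the conditions overlapped at each step. Half-Mb steps placed the widest gap between conditions next to the centromere, with a log2 ratio of 0.75 from 0 to 0.5 Mb and 0.29 from 0.5 to 1 Mb.

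A stricter threshold changed the shape of the profile. Counting only regions with a −log10 p of at least 2, the first Mb had densities of 1.04 and 1.40 in the controls and 2.83 and 3.21 in the restricted libraries. All 4 values were above the chromosome average rather than below it. They rest on 154, 58, 47 and 123 regions. Of these, 37, 17, 1 and 34 had a local background, estimated as pileup over fold enrichment, above 5 times the library's median.

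The 8 windows spanned a wide range, and 5 of them were denser after restriction with no overlap. Among all 1 Mb bins of the 8 chromosomes, 41.1% were higher and 23.6% lower with no overlap. The window of chromosome 7 moved furthest, from 0.465 and 0.543 in the controls to 0.998 and 0.706, a ratio of means of 1.69. Chromosome 6 went from 0.516 and 0.512 to 0.682 and 0.695, with almost the same ratio in both letters (1.32 and 1.36). Chromosome 12 went from 0.680 and 0.733 to 0.875 and 0.905. Chromosome 10 (0.810 and 0.863 to 0.892 and 0.930) and chromosome 16 (0.890 and 0.914 to 1.12 and 0.938) showed smaller steps. In the window of chromosome 17 the values were lower instead, at 1.31 and 1.34 in the controls against 1.18 and 1.01. The windows of chromosomes 1 (0.975 to 1.05 over the 4 libraries) and 2 (0.970 to 0.997) overlapped between conditions. Counting only regions with a −log10 p of at least 2, the windows of chromosomes 12 (log2 ratio 0.03) and 17 (−0.19) overlapped as well, and that of chromosome 2 was higher with no overlap (0.92).

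Of the 16 flanks, 9 were higher after restriction with no overlap, 4 were lower and 3 overlapped (1p, 1q and 10q). For comparison, 41.1% of all 1 Mb bins of the 8 chromosomes were higher and 23.6% lower with no overlap. The sparsest flank was 6q, a gene-poor stretch, with 0.217 and 0.235 in the controls and 0.377 and 0.454 in the restricted libraries. Both restricted values were above both controls, and 6q remained the sparsest flank in all 4 libraries. Flank 16p went from 0.527 and 0.590 to 1.15 and 0.673, so the 2 restricted libraries there were far apart. Flank 7q did the same, from 0.501 and 0.535 to 1.12 and 0.714.

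The flanks that were lower were among the densest. Flank 17q, the densest in the controls, had 1.46 and 1.48 there and 1.37 and 1.13 after restriction. Flank 17p had 1.19 and 1.22 against 0.998 and 0.913, 2q had 1.26 and 1.29 against 1.07 and 1.18, and 16q had 1.31 and 1.29 against 1.07 and 1.24. Of the 11 flanks with a control mean below 1, 9 were higher and 0 lower, and of the 5 at or above 1, 0 were higher and 4 lower. Since the controls enter both the split and the comparison, these counts describe the pattern and are no test of it.

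The flanks were consequently more alike after restriction. The densest flank exceeded the sparsest by a ratio of 6.70 in control A and 6.28 in control B, against 3.64 in restricted A and 2.74 in restricted B. The standard deviation of log2 density over the 16 flanks was 0.72 and 0.66 in the controls and 0.42 and 0.37 in the restricted libraries. Restricted A, with the least covered, and restricted B, with a covered share between those of the 2 controls, both lay outside the control range on both measures. The part of covered share and of depth in this narrower spread was not tested.

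**Figure D2:**
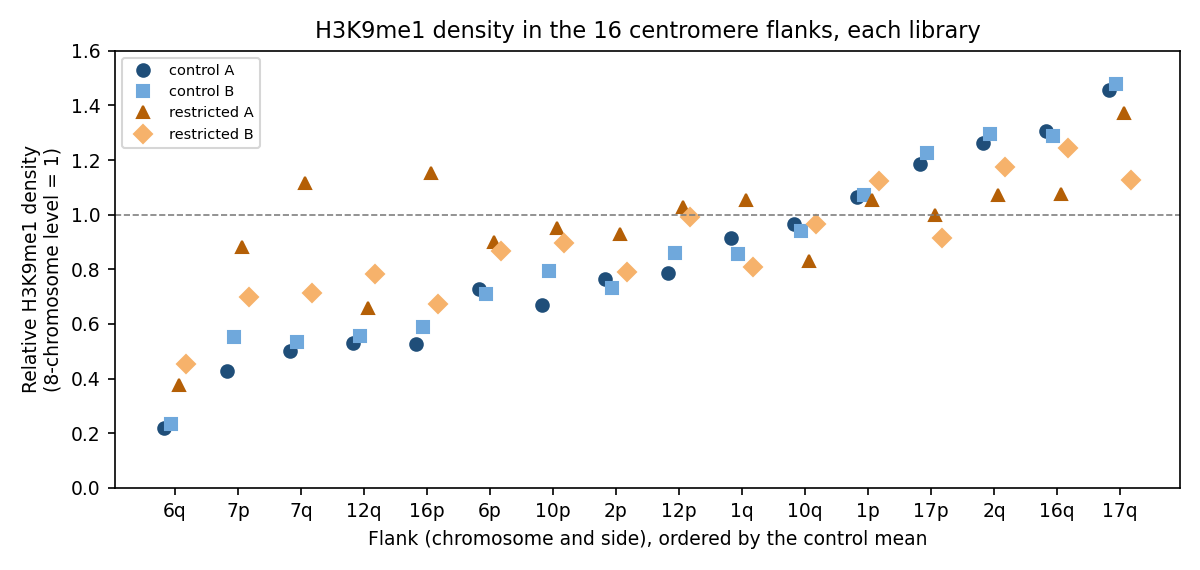
Relative H3K9me1 density (y axis) in each of the 16 flanks (x axis, ordered by the control mean), with 1 point per library. Restricted points (triangles and diamonds) lie above the controls in the sparse flanks on the left, such as 6q (0.377 and 0.454 against 0.217 and 0.235), and below them in the dense flanks on the right, such as 17q.

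In the first Mb of each flank, 11 of 16 were higher after restriction with no overlap, 2 were lower (2q and 17q) and 3 overlapped (1p, 2p and 16q). Of all 1 Mb bins of the 8 chromosomes, 41.1% were higher and 23.6% lower with no overlap. Outside the windows, 97.9% of bins with a mean density below 0.5 were higher with no overlap. That share was 70.1% between 0.5 and 1 and 14.1% between 1 and 1.5. The lowest control values in the first Mb were those of 6q (0.0536 and 0.0818), 7p (0.0668 and 0.189), 1q (0.0700 and 0.126) and 7q (0.0991 and 0.151). After restriction 7p held 0.930 and 0.486, 1q held 0.925 and 0.272, 7q held 0.698 and 0.296 and 6q held 0.211 and 0.352. Near the gap of 12p the step was more even between letters, from 0.212 and 0.274 to 0.541 and 0.611. Flank 6p was likewise even, from 0.374 and 0.368 to 0.608 and 0.618. The dense first Mb of 17q went the other way, from 1.38 and 1.34 to 1.08 and 1.07. Region-free stretches took up 25.4% of the first Mb of 1q, 20.4% of 7q and 26.9% of 2p.

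The windows were next resolved into 87 bins of 1 Mb, tested with limma within a fit of all 1225 bins of the 8 chromosomes. At an adjusted p under 0.05, 16 of the 87 bins were called (18.4%), 15 higher and 1 lower after restriction. Over all 1225 bins the fit called 13.1%, of which 9.96% were higher and 3.18% lower. Without overlap between conditions, 41 window bins were higher (47.1%, against 41.1% of all bins) and 17 lower (19.5%, against 23.6%). The median log2 difference was 0.14 over the window bins and 0.08 over all bins. Bins that start within 1 Mb of the gap had 8 of 31 called and a median of 0.50, and those further out 8 of 56 and a median of 0.03. Chromosome 7 held 6 of the 16 calls, in 10 bins.

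Bins of equal density elsewhere on the 8 chromosomes showed like values. Among bins with a mean density below 0.5, the median log2 difference was 1.20 over 22 window bins and 1.04 over 143 others. Between 0.5 and 1 the medians were 0.32 over 26 window bins and 0.28 over 338 others, and between 1 and 1.5 both were −0.11. In these 3 density classes limma called 11 of 22, 4 of 26 and 1 of 37 window bins, and 54.5%, 8.58% and 6.05% of the others. Whether window bins differ from others of equal density was not tested. Which bins were called did depend on the fit: 41 window bins were called without restricted A and 36 without restricted B. With limma 0 were called when densities were left unscaled or quantile normalized (which gives every library the same spread), in 2 Mb bins, or with −log10 p of at least 2, where 0, 8, 16 and 9 window bins had an unadjusted p under 0.05.

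**Figure D3:**
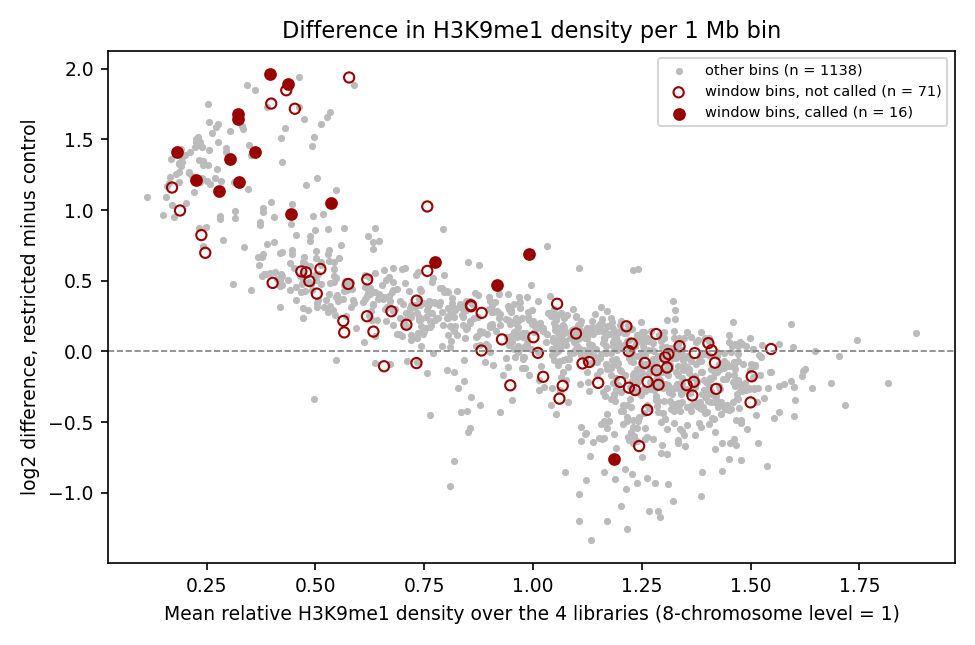
Log2 difference in relative H3K9me1 density, restricted minus control (y axis), against the mean density over the 4 libraries (x axis), with 1 point per 1 Mb bin. The 87 window bins (red, filled when called by limma) lie among the 1138 other bins (grey), both running from positive values in sparse bins to values at or below 0 in dense ones.

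The largest rise in a called bin was beside the centromere of chromosome 7. The bin chr7:63000001-64000000 had densities of 0.0622 and 0.144 in the controls and 0.823 and 0.552 in the restricted libraries, a log2 difference of 1.96 ± 0.30 (SE; limma, adjusted p = 0.0225). Its neighbour chr7:62000001-63000000 rose from 0.0548 and 0.155 to 0.580 and 0.499 (log2 1.68 ± 0.31, limma, adjusted p = 0.0225). Across the gap on the p side, chr7:57000001-58000000 rose from 0.0660 and 0.188 to 0.991 and 0.506 (log2 1.90 ± 0.39, limma, adjusted p = 0.0295). These stretches were nearly empty of H3K9me1 regions in control A, and came closest to the chromosome average in restricted A.

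On the short arm of chromosome 10, 3 adjacent bins rose. The bin chr10:37000001-38000000 went from 0.0676 and 0.147 to 0.551 and 0.521 (log2 1.64 ± 0.29, limma, adjusted p = 0.0225), with restricted values that nearly coincided. Next to it, chr10:36000001-37000000 went from 0.0958 and 0.217 to 0.502 and 0.628 (log2 1.41). On the q side the 0.635 Mb of chr10:42000001-43000000 outside the gap went from 0.296 and 0.315 to 0.970 and 0.560 (log2 1.05). With the whole bin length kept this bin was not called (log2 0.97, limma adjusted p = 0.0508). The bin chr16:34000001-35000000, within 0.3 Mb of the gap, rose from 0.113 and 0.207 to 0.457 and 0.518 (log2 1.20). The bin chr12:34000001-35000000 at the gap rose from 0.234 and 0.299 to 0.570 and 0.669 (log2 0.98), and was not called without control A (limma adjusted p = 0.110). The other called rises without a gene group were chr7:53000001-54000000, chr7:61000001-62000000, chr12:29000001-30000000 and chr17:22000001-23000000. Their log2 differences were 0.47 to 1.36, with limma adjusted p-values of 0.0319 to 0.0452. Of these 4, the last had only 261.6 kb outside the gap. With the whole bin length kept it was not called (log2 0.64, limma adjusted p = 0.210). None of these 4 was called in every fit with 1 library left out, where their highest limma adjusted p-values were 0.183, 0.230, 0.400 and 0.0728 in the order given.

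KRAB zinc finger clusters encode repressors that recruit the H3K9me3 methyltransferase SETDB1 through TRIM28. Of the bins at clusters in 7q11 and 10p11, 3 of 3 passed as higher, against 9.96% of all 1225 bins. Of the 3, 2 belong to one cluster, in the chromosome 7 window, where limma called 6 of 10 bins. The bin chr7:63000001-64000000 had a mean density below 0.5, a class with 11 of 22 window bins and 54.5% of others called. The others lay between 0.5 and 1, with 4 of 26 and 8.58% called. Other zinc finger loci were not looked at and the group was chosen with earlier results known, so the count is no test. Genes here and below were placed in bins from general knowledge in whole Mb and not from an hg19 annotation. The 7q11 cluster spans chr7:63000001-64000000, given above, and chr7:64000001-65000000. The latter held 0.702 and 0.753 in the controls and 1.49 and 1.02 in the restricted libraries (log2 0.69 ± 0.17, limma, adjusted p = 0.0379). The 10p11 cluster, in chr10:38000001-39000000, held 0.540 and 0.633 against 1.04 and 0.894 (log2 0.63 ± 0.15, limma, adjusted p = 0.0289). Without control A these latter bins had limma adjusted p-values of 0.0785 and 0.280, and without control B the 10p11 bin had 0.0558. Counting only regions with a −log10 p of at least 2, the 10p11 bin turned to a log2 difference of −0.87.

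Of 13 bins at genes of restricted expression, 1 passed, a share near that over all bins (9.96% higher, 13.1% in either direction). The bin of EYS, a photoreceptor gene (chr6:65000001-66000000), had the lowest control level of the named bins, 0.0233 and 0.0895, and rose to 0.292 and 0.321 (log2 1.41 ± 0.34, limma, adjusted p = 0.0295). Leaving out either restricted library ended that call (limma adjusted p of 0.113 and 0.227). The bin of KHDRBS2, an RNA-binding protein of neurons, held 0.0476 and 0.0829 against 0.195 and 0.358 and did not pass (limma adjusted p = 0.0584). These are the sparsest bins of all windows by their mean over the 4 libraries, 0.171 for KHDRBS2 and 0.181 for EYS, and the sparsest 5 include the 6q bins chr6:61000001-62000000 and chr6:63000001-64000000. Around SYT10, a neuronal synaptotagmin, it was 0.359 and 0.377 against 0.609 and 0.570 (limma adjusted p = 0.0880). The bins of LRRK2, a kinase mutated in familial Parkinson's disease, and of the axonal adhesion gene CNTN1 were at 0.521 to 0.621 in the controls and 0.620 to 0.849 after restriction. The bin of CBLN1, a cerebellar synapse organiser, was among those lower without passing, with 1.41 and 1.62 against 0.630 and 1.31. At NOD2, an innate immune sensor, the values were 1.51 and 1.39 against 0.899 and 1.25, also without passing. The remaining restricted genes, BMP5, ZAP70, TBX15, CXCL12, RET and the immunoglobulin kappa locus, did not pass and had control means of 0.511 (BMP5) to 1.30 (RET).

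Of 5 bins at genes of serine, one-carbon and sulfur amino acid metabolism, 0 were called higher and 1 lower by limma (9.96% and 3.18% of all bins), and 3 had an unadjusted p under 0.05 (404 of all 1225). The called bin, chr17:17000001-18000000, holds PEMT, which uses S-adenosylmethionine to make phosphatidylcholine. It held 1.52 and 1.52 in the controls and 0.825 and 0.884 in the restricted libraries, a log2 difference of −0.76 ± 0.12 (limma, adjusted p = 0.0225). The 2 libraries of each condition nearly coincided, and the limma call held when any one of the 4 was left out. With a −log10 p of at least 2 required, the sign turned (log2 1.99), and it did not pass. The adjacent bin of SHMT1, the cytosolic serine hydroxymethyltransferase, had 1.11 and 1.28 against 0.920 and 0.932 without passing (limma adjusted p = 0.0975). PHGDH, the first enzyme of serine synthesis, lies in a bin with 1.42 and 1.31 against 1.29 and 1.21. PSPH, the phosphatase that completes serine synthesis, lies in a chromosome 7 bin with 0.359 and 0.558 against 1.34 and 0.767, the highest step of the 5, which did not pass (limma adjusted p = 0.0826). The bin of GCLC, the catalytic subunit of glutathione's first enzyme, overlapped between conditions, with 1.14 to 1.29 over the 4 libraries.

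Of 9 bins at widely expressed genes, 0 passed in either direction with limma, against 13.1% of all bins. An unadjusted limma p under 0.05 was found in 0 of the 9, against 404 of all 1225 bins. Most of the 9 had a mean density of 1 to 1.5, a class with 1 of 37 window bins and 6.05% of others called. The 9 bins were dense in the controls, with a median of 1.47. Of the 9, 4 were lower and 1 higher with no overlap (23.6% and 41.1% of all bins). The bin of TAOK1, a stress-responsive kinase, had 1.73 and 1.66 against 1.51 and 1.11. Around CUL2, a ubiquitin ligase scaffold, it was 1.39 and 1.66 against 1.30 and 1.12. At NF1, the neurofibromin tumour suppressor, it was 1.40 and 1.54 against 1.39 and 1.08. VPS35, a retromer subunit beside the 16q gap, was the one that was higher, at 0.976 and 0.851 against 1.41 and 0.979. The densest bin of all windows, chr7:65000001-66000000 with GUSB (beta-glucuronidase), overlapped between conditions at 1.57 and 1.46 against 1.97 and 1.19. So did the next densest, the bin of TXNIP, an inhibitor of thioredoxin, at 1.69 and 1.49 against 1.67 and 1.16. The bin of EGFR, the epidermal growth factor receptor, was dense within the sparse flank 7p, at 1.32 and 1.49 against 1.16 and 1.19, and did not pass.

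Single regions in the windows had nearly the same median width and fold enrichment as those elsewhere, but more of them were strong. The median width was 370 bp (A) and 384 bp (B) in the controls and 327 bp (A) and 373 bp (B) after restriction, against, in the same order, 372, 386, 323 and 377 bp in the rest of the 8 chromosomes. The median fold enrichment over input, as the authors' caller gave it, was 1.98, 1.83, 1.85 and 1.84 in the windows and 1.98, 1.82, 1.85 and 1.84 outside. Regions with a −log10 p of at least 2 made up 4.84% of window regions in control A (95% Wilson interval 4.53% to 5.16%) and 1.09% in control B (0.957% to 1.23%). They made up 1.07% in restricted A (0.897% to 1.27%) and 1.42% in restricted B (1.28% to 1.58%). Outside the windows the shares were 4.25%, 0.844%, 0.640% and 0.850%, each below the interval for the windows. The intervals cover counting error only.

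Stronger regions made up a larger share of the regions in the first Mb than in the rest of the chromosomes. So did regions of high estimated local background. Pileup divided by fold enrichment was used as an estimate of the background that the caller set against each region. How closely it matches the caller's own value was not tested. In the first Mb this estimate exceeded 5 times the library's median in 2.70%, 1.78%, 1.47% and 2.67% of regions. In the rest of the 8 chromosomes it did so in 0.0112%, 0.00884%, 0.0206% and 0.0210%. Within 0.1 Mb of the gap, where 171, 228, 209 and 357 regions lay, the shares were 25.7%, 16.7%, 9.09% and 19.6%. In the same 0.1 Mb, 22.8%, 7.02%, 6.70% and 13.2% of regions had a −log10 p of at least 2. Both conditions showed the rise in estimated background, and its part in the difference between conditions was not tested.

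**Figure D4:**
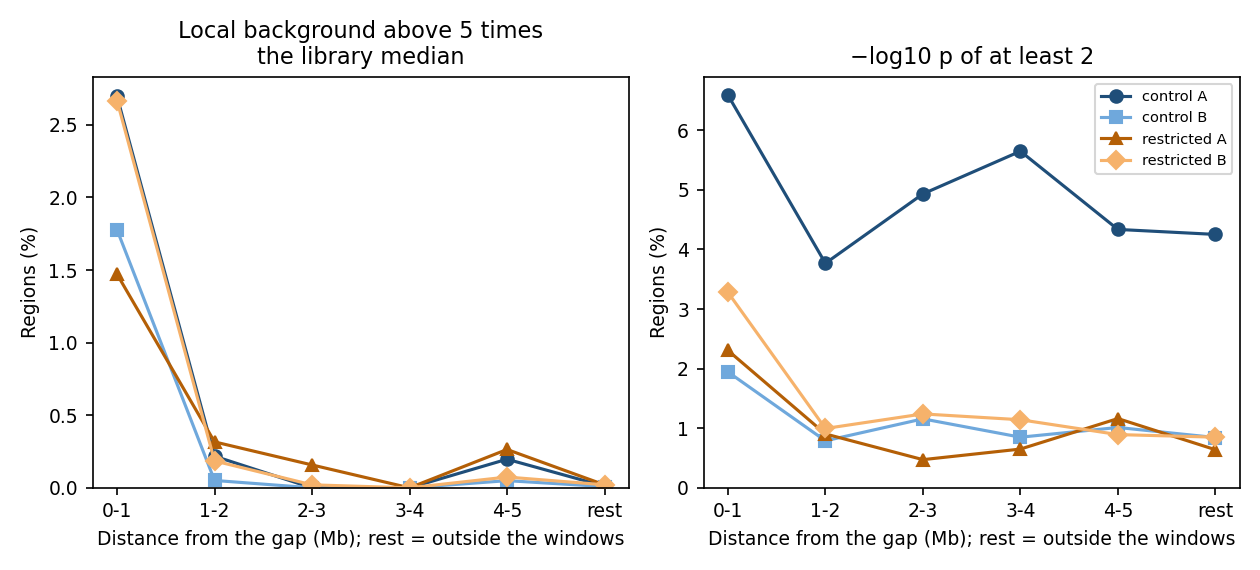
Share of H3K9me1 regions (y axis, percent) by distance from the gap (x axis), with 1 line per library. The rest of the 8 chromosomes is at the far right. The left panel counts regions with a local background, estimated as pileup over fold enrichment, above 5 times the library median. The right panel counts regions with a −log10 p of at least 2. In all 4 libraries the background share is highest in the first Mb (1.47% to 2.70%), and control A has the highest share of stronger regions at every distance.

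The extremes within the windows were as follows. The highest pileup of every list lay within 0.3 Mb of the q side of the chromosome 10 gap, between chr10:42384995-42385634 in restricted B and chr10:42596928-42597136 in control A. The controls reached 138.1 (A) and 93.8 (B) and the restricted libraries 66.3 (A) and 129.4 (B), with fold enrichments over that high background of 1.14 to 1.22. The window region with the highest −log10 p was chr10:42533613-42533909 in control A (5.53, fold 1.67, pileup 78.8). In the other lists it was chr1:145352056-145352481 in control B (3.96, fold 3.06), chr16:33949120-33949282 in restricted A (3.94, fold 3.08) and chr16:46442770-46442875 in restricted B (4.41, fold 3.09). Outside the windows the highest −log10 p was 4.92, 3.84, 7.82 and 4.91 in control A to restricted B, above the windows' highest in both restricted lists. The 3 window regions outside chromosome 10 had fold values near 3 and pileups of 10.1, 10.3 and 12.8.

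Few regions recurred between libraries. Merging overlapping regions gave 44372 in the windows, of which 60.6% came from 1 library and 1942 (4.38%) from all 4, against 4.65% from all 4 in the rest. Regions in both controls only numbered 2357 (5.31%, rest 5.91%) and in both restricted libraries only 1361 (3.07%, rest 2.58%). Libraries that share a letter across conditions alone had 674 (A, 1.52%, rest 1.45%) and 2738 (B, 6.17%, rest 6.42%). The crossed pairs alone had 1949 (control A with restricted B, 4.39%, rest 4.77%) and 961 (control B with restricted A, 2.17%, rest 2.05%). The covered bases of the 2 controls overlapped by 14.4% of their union, those of the restricted pair by 7.99%, and pairs across conditions by 6.87% to 13.2%. Sharing was thus low within conditions and across them, and lowest in the 3 pairs with restricted A, the list that covered least.

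The share of merged regions found in all 4 lists was highest in the windows of chromosomes 1 (6.05%) and 2 (5.25%) and lowest in that of chromosome 6 (2.98%). The widest merged region present in all 4 was chr2:95423871-95431299, 7429 bp long and 0.101 Mb from the gap. Controls A and B covered 6.66 and 2.87 kb of it, and restricted A and B 0.890 and 5.49 kb. The next were chr17:26323052-26330049 (6998 bp), chr1:117562101-117568553 (6453 bp), chr6:58272524-58278873 (6350 bp) and chr7:65293352-65299628 (6277 bp). In the last, coverage was 3.98, 2.33, 3.83 and 2.37 kb in the same order, higher in both A libraries than in both B libraries.

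H3K9me1 regions lay over more of the H3K9me3 peak bases after restriction. In the windows, H3K9me1 regions of the same time and letter covered 10.2% and 8.47% of H3K9me3 bases in the controls (A, then B) against 20.6% and 22.8% after restriction. Both restricted values were more than double the control mean, 9.31% ± 1.19 against 21.7% ± 1.58 (SD, n = 2 each; exact permutation test, two-sided, p = 0.333). H3K9me1 covered 10.8%, 13.6%, 5.80% and 13.8% of all window bases in the same order. Relative to that, H3K9me3 bases held 0.941 and 0.624 times the window level in the controls and 3.55 and 1.66 times in the restricted libraries. By number, 18.7% and 27.9% of the H3K9me3 peaks in the windows met an H3K9me1 region in the controls, against 127 of 222 peaks (A) and 65 of 100 peaks (B) after restriction.

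Outside the windows the overlap was 4.81% and 11.4% of H3K9me3 bases in the controls and 46.7% and 38.6% after restriction. In bases, the rise was thus larger there in both letters. By number, 18.4% and 35.1% of the peaks there met an H3K9me1 region in the controls, against 76.2% and 73.0% after restriction. The ratio by number was larger there within letter A (4.14 against 3.07 in the windows) but smaller within letter B (2.08 against 2.33). Both marks of a time and letter were called against the same input library, and the part of that shared input in the overlap was not tested.

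**Figure D5:**
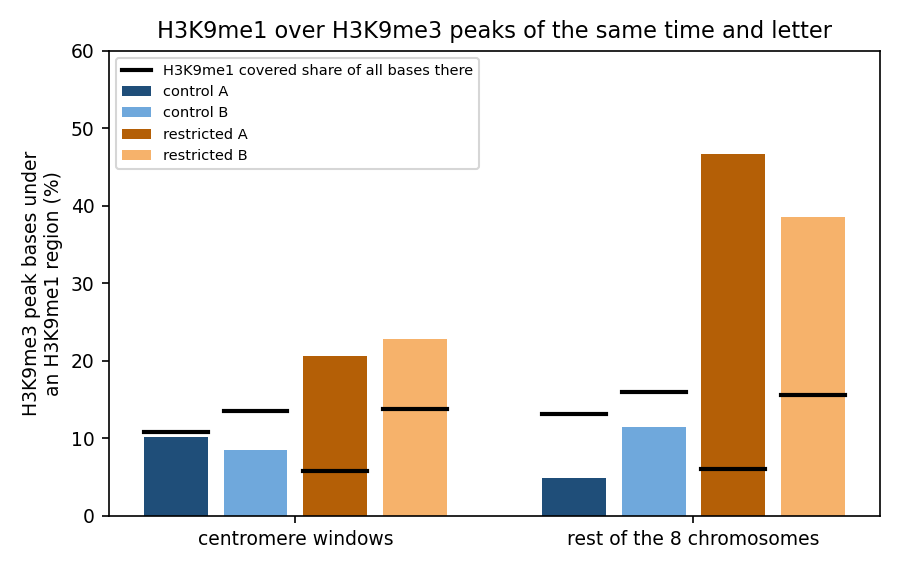
Share of H3K9me3 peak bases covered by H3K9me1 regions of the same time and letter (bars, percent), in the windows and in the rest of the 8 chromosomes, with the H3K9me1 covered share of all bases there as a black line. Control bars lie below their lines and restricted bars above them, 20.6% and 22.8% against 5.80% and 13.8% in the windows.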

How the data were processed

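The data were the H3K9me1 and H3K9me3 peak lists of 8 ChIP-seq libraries (the 4 inputs were not analysed here as files). Build hg19, MACS2 2.1.1.20160309, SAMtools 1.5 and Bowtie2 2.1.0 are named in the submitters' processing notes. Each library was called alone with broad regions, per the file headers, with its own time and letter's input as control and the larger dataset scaled to the smaller. H3K9me1 had p cutoffs of 0.0001 and 0.1 with at most 1 tag per position, and H3K9me3 had q cutoffs of 0.05 and 0.1. Pileup as deposited is a signal (read coverage). Deposited p-values are on the −log10 scale. Fold enrichment, also deposited by the authors, is a ratio to local background. Per the file headers, the letter coincided with the sequencing lane within a mark, so ratios within a letter are within-lane values.

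Relative density used base pairs of regions by midpoint and lengths without the gaps. Bins of 1 Mb with at least 100 kb outside the gap and a region in at least 2 libraries were fitted in limma 3.58.1 (R 4.3.3, trend and robust) on log2(relative density + 0.1), so log2 differences understate changes of sparse bins. P-values were Benjamini-Hochberg adjusted over all 1225 bins. Single values had exact two-sided permutation tests (scipy 1.17.1). The scripts were tested on simulated data. The windows, bins, gene groups and tests were chosen with earlier results of these data known. Named were all windows and flanks, all called window bins, and the lower window bins of largest log2 difference with no overlap between conditions. Also named were the densest and sparsest bins, the strongest and widest regions and 31 bins placed by hand at genes or loci. No region sequence is shown, since no hg19 genome was used here. Alternatives were stricter thresholds, other lengths, scalings, bin sizes, pseudocounts and filters, a replicate block by letter, and omission of single libraries or chromosomes. Leaving out a restricted or control library assumes that the lone one varies like the other condition.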

Additional observations from a re-analysis of the deposited data

How the results depend on the processing

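The log2 ratio of the windows (0.14) stayed positive in every alternative except unscaled density (−0.32, where the median of all bins shifted to −0.44), ran from 0.08 to 0.20 with 1 library left out, and was 0.40 and 0.58 with −log10 p of at least 1.5 and 2. Unscaled density also turned the steps at 1 to 2 Mb (−0.23), 2 to 3 Mb (−0.34) and 3 to 4 Mb (−0.39), and left 0.0031 for the first Mb (0.33 to 0.66 with 1 library left out). The step at 3 to 4 Mb (0.04) changed sign without chromosome 7 (−0.031) and with −log10 p of at least 2 (−0.13), and ran from −0.015 (without control A) to 0.097 with 1 library left out. The step at 4 to 5 Mb changed sign without chromosome 17 (0.046) and with −log10 p of at least 2 (0.57). That threshold also turned flanks 6q (−0.65), 12p (−0.39) and 16q (0.24), the overlapping flanks 1p (−0.18) and 10q (0.31), the overlapping windows of chromosomes 1 (−0.071) and 2 (0.92), and the bins chr10:38000001-39000000 (−0.87), chr6:65000001-66000000 (−0.17) and chr17:17000001-18000000 (1.99), and left 7 flanks higher and 0 lower. Quantile normalization turned chr7:53000001-54000000 (−0.087) and chr17:22000001-23000000 (−0.090), and unscaled density chr12:29000001-30000000 (−0.024).

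The limma count of 16 window bins (15 higher, 1 lower; 161 of all bins) became 28 (26 and 2; 280) with the letter as a replicate block, whose log2 ratio for the windows was 0.14. The labels do not show that A and B pair cultures. The deviations of A and B correlated at −0.11 over the 1225 bins, and with the letters crossed 24 (21 and 3; 270) were called. Bins of 0.5 Mb gave 26 (22 and 4). The limma count was 0 in the windows and 0 over all bins with 2 Mb bins, unscaled density, quantile normalization and −log10 p of at least 2, where 16, 0, 8 and 9 window bins and 219, 3, 154 and 70 of all bins had an unadjusted p under 0.05. Leaving out 1 library gave 19 to 41 window bins (17 to 28 higher, 1 to 13 lower) and 118 to 648 of all bins, most without restricted A. The cause of these shifts was not tested. Merged regions in all 4 lists fell to 32 when each library had to cover at least 50% of the region (restricted only: 832). With −log10 p of at least 2 they numbered 1 (controls only 13, restricted only 8). The weak calling threshold and 2 libraries per condition limit all values.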
